A study of Mus musculus with 3 samples.

Results

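The genes that build and load MHC class I molecules were followed in mouse bone marrow cultures turning into osteoclasts. The set held 9 genes, listed by symbol with no threshold on their values: the light chain B2m, the heavy chains H2-K1, H2-D1, H2-T23, H2-M3 and H2-Q10, the peptide transporter subunits Tap1 and Tap2, and the loading factor Tapbp. Each was read from every probe set that the platform annotation assigned to that symbol alone. By this rule 8 of the 9 genes had 24 probe sets, out of 12393 genes and 20380 single-symbol probe sets on the array. H2-T23 was covered by 2 probe sets that carry a further symbol, so no value is given for it.

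The study measured 3 cultures of C57/BL6 bone marrow cells with 1 Affymetrix array each. All 3 cultures received hM-CSF (human macrophage colony-stimulating factor) at 50 ng/ml for 3 days to make macrophages, and then hRANKL (human RANK ligand) at 150 ng/ml for 0, 24 or 72 h. Per the labels the 0 h culture holds precursors, the 24 h culture differentiating precursors and the 72 h culture osteoclasts, the multinucleated cells that resorb bone. With a single array per time, differences carry no replicate error and were not tested. A culture of equal age without hRANKL is not among the samples, so the ligand and the time in culture cannot be told apart.

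Over 22626 gene probe sets the deposited signals had medians of 36.7, 60.9 and 62.7 at 0, 24 and 72 h, and each array was therefore centred on its median log2 signal. Signals below are on that common scale, so a difference is one beyond the shift of the typical probe set. Signals under a floor of 29.6, the 40th percentile over the gene probe sets, were set to that floor and have no order. In a comparison, a gene or probe set counts as measured if it was above the floor on at least 1 of the 2 arrays. Where the other array was at the floor, the difference is a lower limit of its size. A gene is represented by its brightest probe set unless another is named, and it is called higher or lower at a log2 difference of 1, which is 2-fold. The error at hand is technical, the SD of the disagreement between 2 probe sets of a gene divided by the square root of 2. For 24 h against 0 h this log2 error was 0.41, for 72 h against 24 h it was 0.36 and over the whole course 0.49, and it does not hold the spread between cultures. Set against the labels, 8 of 8 osteoclast markers were at least 2-fold higher at 72 h than at 0 h. The 10 macrophage markers lay above the floor on all arrays, with 8 of them at least 2-fold lower and 1 higher at 72 h than at 0 h. At 0 h the summed scaled signal was 32591 for macrophage markers and 18452 for markers of neutrophils and their precursors.

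MHC class I molecules show peptides from inside the cell to CD8 T cells and NK cells. The proteasome cuts cytosolic proteins, the transporter of Tap1 and Tap2 carries the peptides into the endoplasmic reticulum, and tapasin, encoded by Tapbp, holds the transporter next to a waiting heavy chain bound to B2m. Macrophages carry class I molecules throughout, and interferon gamma raises transcription of nearly the whole set in many cell types. Of the 9 genes, 8 lie on mouse chromosome 17 in or near the major histocompatibility complex, while B2m lies on chromosome 2.

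The class I genes went different ways between 0 and 72 h of hRANKL. Measured in this comparison were 7 genes, of which Tap2 was 2.23-fold higher, H2-M3 was 3.55-fold lower and Tapbp, read by the brighter of its probe sets, was 2.48-fold lower. The signals of H2-D1, B2m, H2-K1 and Tap1 stayed within 2-fold. In RNA of a whole culture, fewer cells of a type and less RNA per cell cannot be told apart. So 1 of 7 was called higher, where 12.5% of all measured genes were, and 2 of 7 were called lower, where 12.8% of all measured genes were. The median log2 difference of the 7 genes was -0.54, beside -0.01 over all 8558 measured genes. On the deposited scale, without centring, the median of the 7 genes was 0.23. Counts this small do not set the 7 genes apart from all genes.

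**Figure D1:**
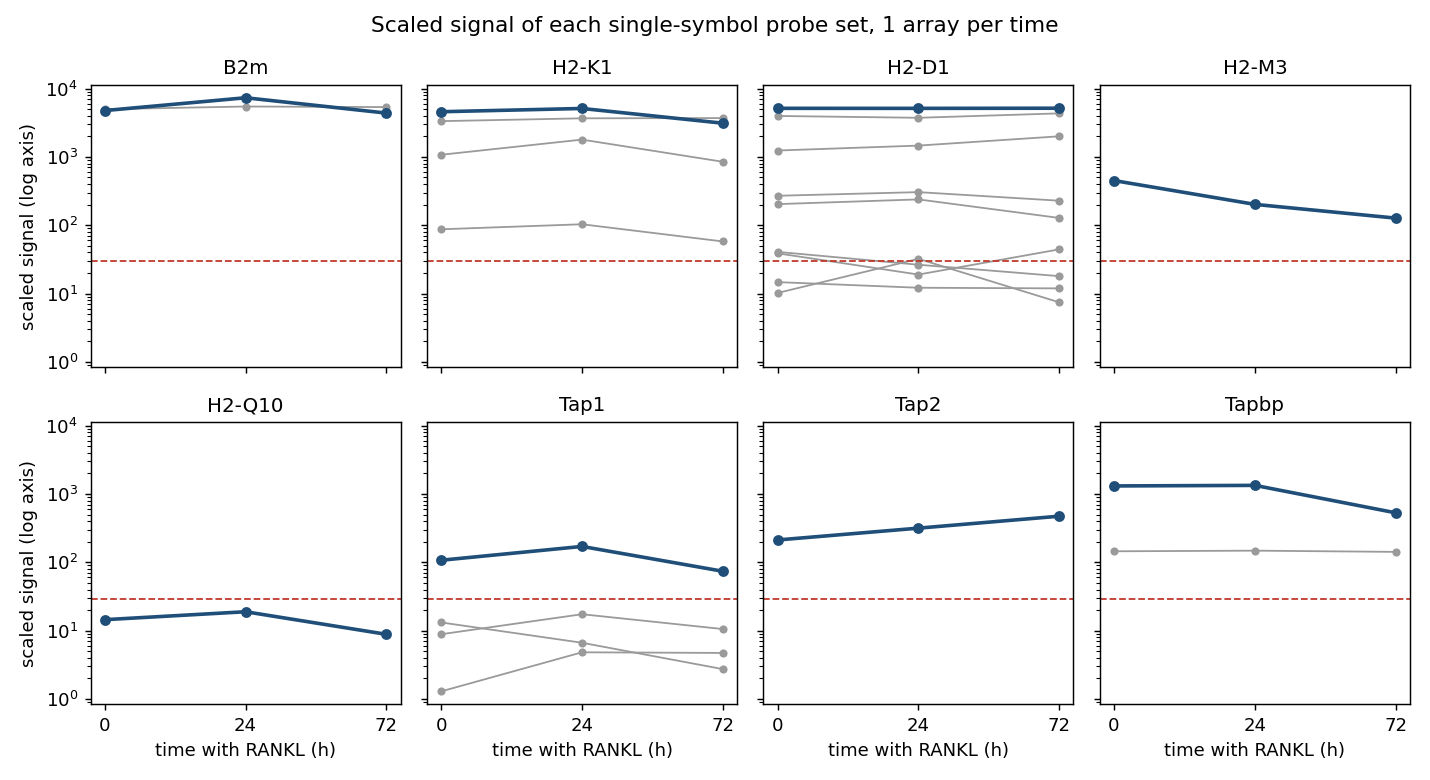
Scaled signal (log axis) of every single-symbol probe set of 8 genes against time with hRANKL in hours. The thick blue line is the brightest probe set of a gene, grey lines are its others, and the red dashed line is the floor of 29.6. H2-M3 fell to 127 at 72 h, Tap2 stood at 474, and the H2-Q10 probe set lay under the floor on all 3 arrays.

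H2-K1 and H2-D1 encode the classical heavy chains of this strain, which present peptides to CD8 T cells. The brightest H2-D1 probe set read 5141 at 0 h, 5134 at 24 h and 5161 at 72 h. These 3 values were nearly equal, with log2 differences between -0.002 and 0.01. The brightest H2-K1 probe set read 4583 at 0 h, 5115 at 24 h and 3113 at 72 h. Its log2 difference was -0.56 for 72 h against 0 h and -0.72 for 72 h against 24 h, both within 2-fold.

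The probe sets of these closely related genes did not move together, as the plot of signals by time shows. H2-K1 had 4 single-symbol probe sets, all above the floor on the 3 arrays and all with IDs ending in _x_at, a suffix that marks probes shared with related sequences. Between 24 h and 0 h their log2 differences were all positive and ran from 0.14 to 0.74. Between 72 h and 24 h they ran from -1.08 to 0.01, and 1 of the 4 was at least 2-fold lower, with 848 at 72 h against 1791 at 24 h. The second brightest H2-K1 probe set read 3337 at 0 h, 3670.3 at 24 h and 3702 at 72 h, and so did not share the lower 72 h value of the brightest.

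H2-D1 had 9 single-symbol probe sets, of which 5 were above the floor on all arrays, 3 on some arrays and 1 on none. For 72 h against 0 h the floored log2 differences of its 7 measured probe sets ran from -0.67 to 0.69, and 0 of them reached 2-fold. A probe set with 40.8 at 0 h was at the floor at 72 h, so its difference of -0.46 is a lower limit of its size. The 3 brightest had log2 differences of 0.01, 0.13 and 0.69 in this comparison. The 2 measured H2-D1 probe sets without that suffix read 229 and 128 at 72 h, against 269.9 and 204 at 0 h. The direction for H2-D1 therefore depends on the probe set, and the part of related transcripts in each was not tested.

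H2-M3, a nonclassical heavy chain that presents N-formylated peptides of bacteria and mitochondria, was lower at both times than at 0 h. Its probe set, the only one it had, read 451 at 0 h, 202 at 24 h and 127 at 72 h. It was 2.23-fold lower at 24 h than at 0 h and 1.59-fold lower at 72 h than at 24 h, the second step being within 2-fold. On the deposited scale the first of these calls was lost, with a log2 difference of -0.43 in place of -1.16. The log2 difference of -1.83 for 72 h against 0 h was the largest among the 7 measured genes and lay beyond the technical error of 0.49. H2-Q10, a secreted class I protein known mainly from liver, gave values under the floor on every array, so no fold is given.

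The promoter letters of the heavy chains are shown because this family shares a known control region upstream of its genes. Stretches of 110 bases upstream of the gene start, from RefSeq on build GRCm38.p6, hold in capitals the matches to 3 motifs searched on both strands. These are GAANNGAAA (the core of an interferon-stimulated response element, read here on the opposite strand), GGGNNTTCC (an NF-kappaB site of the class I enhancer) and TGACGC (an X2-like site of the class I promoter).
H2-K1, chr17:34000358-34000467, minus strand: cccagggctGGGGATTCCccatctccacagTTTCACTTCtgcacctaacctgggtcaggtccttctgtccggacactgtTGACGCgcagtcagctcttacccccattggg
H2-D1, chr17:35262914-35263023, plus strand: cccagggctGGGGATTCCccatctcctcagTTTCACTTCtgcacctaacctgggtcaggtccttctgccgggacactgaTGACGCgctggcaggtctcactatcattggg
H2-M3, chr17:37270103-37270212, plus strand: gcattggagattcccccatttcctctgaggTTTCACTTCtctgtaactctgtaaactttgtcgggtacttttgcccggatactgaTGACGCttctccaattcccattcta
H2-Q10, chr17:35469904-35470013, plus strand: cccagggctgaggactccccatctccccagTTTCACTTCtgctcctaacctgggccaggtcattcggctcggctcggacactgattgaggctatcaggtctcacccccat

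H2-K1 and H2-D1 held all 3 motifs, and their stretches were identical at 99 of 110 bases. H2-M3 held the response element core and the X2-like letters, and H2-Q10 the response element core only. Over 32851 RefSeq promoter windows of 300 bases, 7.52% held the response element core, 5.82% the NF-kappaB letters and 7.40% the X2-like letters, with no overlap between the matches printed here. Windows were found for 8 of the 9 genes, and those of B2m, Tap1, Tapbp and H2-T23 held 0 matches to any of the 3. A match is a description of letters and not a binding site. Nor does the lack of a match to these exact letters show that a site is absent. For 72 h against 0 h the log2 differences of the brightest probe sets were 0.01 for H2-D1, -0.56 for H2-K1 and -1.83 for H2-M3. Over all measured probe sets, with floored values, they ran from -0.67 to 0.69 for H2-D1 and from -0.59 to 0.15 for H2-K1. A link between the letters and these differences was not tested.

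B2m, the invariant light chain needed for class I molecules to reach the cell surface, had 2 probe sets. The brighter read 4763 at 0 h, 7339 at 24 h and 4376 at 72 h. Its partner read 4989 at 0 h, 5465 at 24 h and 5359 at 72 h. Both were highest at 24 h, with log2 differences to 0 h of 0.62 and 0.13, and neither reached 2-fold in any comparison. After quantile normalization the first of these was -0.13. For 72 h against 0 h they had opposite signs, -0.12 and 0.10, both well inside the technical error.

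The 2 subunits of the peptide transporter parted. Tap1 read 107 at 0 h, 171 at 24 h and 74.0 at 72 h by its brightest probe set, the other 3 being under the floor on all arrays. It was 1.59-fold higher at 24 h than at 0 h, within 2-fold, and 2.31-fold lower at 72 h than at 24 h. With the floor at the 60th percentile this call was lost, at a log2 difference of -0.89. Its log2 difference for 72 h against 0 h was -0.54, near the technical error of 0.49. Tap2 had a single probe set, which read 212 at 0 h, 317 at 24 h and 474 at 72 h. Its log2 difference was 0.58 in each of the 2 steps, both within 2-fold, and it was 2.23-fold higher at 72 h than at 0 h. The log2 differences for 72 h against 24 h were thus 0.58 for Tap2 and -1.21 for Tap1, with no test of the difference possible on single arrays.

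Tapbp, tapasin, read 1312 at 0 h, 1338 at 24 h and 530.2 at 72 h by its brightest probe set. Its signal was flat over the first day and 2.52-fold lower at 72 h than at 24 h. The second Tapbp probe set read 145 at 0 h, 148 at 24 h and 142 at 72 h, a log2 difference of -0.03 for 72 h against 0 h. The platform annotation gives both probe sets the same source sequence, and they disagreed by more than the technical error, so the Tapbp call rests on 1 of the 2. Averaged, they gave -0.70 for 72 h against 24 h, within 2-fold.

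**Figure D2:**
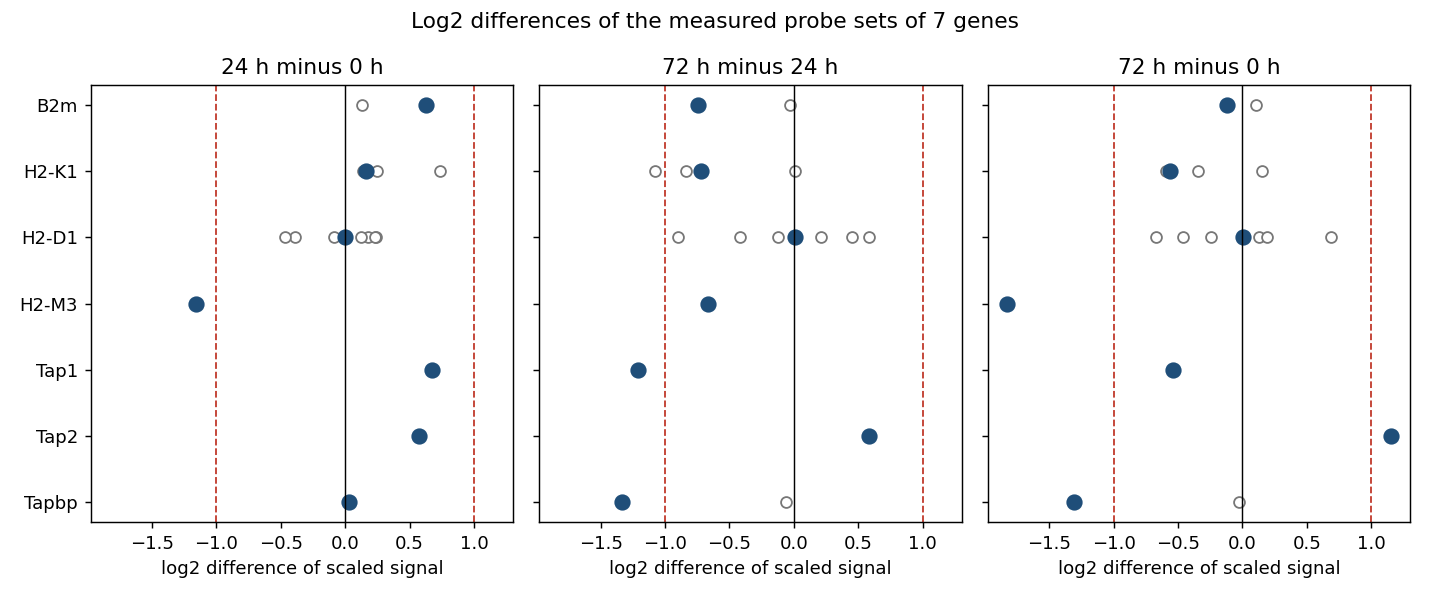
Log2 difference of scaled signal for each measured probe set of 7 genes, for 24 h minus 0 h, 72 h minus 24 h and 72 h minus 0 h. Filled points are the brightest probe sets, open points the others, and the dashed lines mark 2-fold. Tap2 lies at 1.16 and H2-M3 at -1.83 for 72 h minus 0 h, and the Tapbp probe sets part at -1.31 and -0.03.

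By interval, 1 class I gene was called in the first day and 2 thereafter. For 24 h against 0 h, 0 of 7 genes were called higher, where 13.2% of all measured genes were, and 1 of 7, H2-M3, was called lower, where 9.22% were. The median log2 difference was 0.16, beside 0.12 over all measured genes, and it turned to -0.13 with quantile normalization and to -0.04 with a trimmed mean as the scale. Without centring, on the deposited scale, it was 0.89, and there 3 genes were higher and 0 lower in this interval. Of the probe sets, 14 of 19 measured ones had a positive sign. The 19 include 8 of H2-D1 and 4 of H2-K1, and the share of positive signs over all probe sets was not computed. For 72 h against 24 h, 0 of 7 genes were called higher, where 6.92% were, and 2 of 7, Tap1 and Tapbp, were called lower, where 10% were. The median log2 difference was -0.72, beside -0.14 over all measured genes. Of 18 measured probe sets 12 had a negative sign, the 18 including 7 of H2-D1 and 4 of H2-K1. The share of negative signs over all probe sets was likewise not computed. Among the brightest probe sets, those of B2m, Tap1, H2-K1, H2-M3 and Tapbp read lower at 72 h than at 24 h. By the same measure Tap2 read higher and H2-D1 was level. Of the 7 measured H2-D1 probe sets, however, 4 were positive and 3 negative. The 2 measured ones without the _x_at suffix read lower, at -0.42 and -0.90. For B2m the lower reading at 72 h turned after quantile normalization, at 0.10 beside -0.75. At a lower threshold of 1.5-fold, 2 of 7 genes (B2m and Tap1) were higher and 1 lower at 24 h against 0 h, where 26.7% and 17.8% of all genes were. For 72 h against 24 h, 0 were higher and 5 lower at 1.5-fold, where 14.2% and 24.2% were. For 72 h against 0 h, 1 was higher and 2 lower, where 23.2% and 23.3% were.

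Tap1 lies head to head with Psmb9, which encodes an inducible subunit of the immunoproteasome, and the 225 bases between their starts are shown because 1 stretch serves 2 genes of the pathway. No match to the 3 motifs lies in it, so it has no capitals.
Tap1 and Psmb9, chr17:34187331-34187555, strand of Tap1, GRCm38.p6: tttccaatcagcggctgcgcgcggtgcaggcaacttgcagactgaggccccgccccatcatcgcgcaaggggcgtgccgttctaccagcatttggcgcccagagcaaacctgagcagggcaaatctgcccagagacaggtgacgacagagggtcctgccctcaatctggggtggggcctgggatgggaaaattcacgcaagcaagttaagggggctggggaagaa

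Psmb9 read 409.8 at 0 h, 345 at 24 h and 180.5 at 72 h, and was 2.27-fold lower at 72 h than at 0 h. At 24 h its log2 difference to 0 h was -0.25, beside 0.67 for Tap1, and for 72 h against 24 h it was -0.94, beside -1.21 for Tap1.

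The list of the immunoproteasome and its activator and that of the constitutive catalytic subunits and other activators gave different counts. Among all measured genes, 12.5% were higher and 12.8% lower for 72 h against 0 h, and 13.2% higher and 9.22% lower for 24 h against 0 h, which are the shares to set beside the list counts from here on. Of 4 measured genes of the immunoproteasome and its activator, 2 were at least 2-fold lower at 72 h than at 0 h and 0 higher, with a median log2 difference of -0.88 (-0.11 on the deposited scale). Psmb10, an inducible catalytic subunit, was 2.51-fold lower, with 350.1 at 72 h against 878 at 0 h. Psmb8, the inducible subunit encoded next to Tap1, read 559 at 0 h, 1215 at 24 h and 481 at 72 h, and so was 2.17-fold higher at 24 h than at 0 h and within 2-fold of 0 h at 72 h. Psme1, a subunit of the inducible activator, had a log2 difference of -0.58 for 72 h against 0 h. The list of constitutive catalytic subunits and other activators also held Psmf1, which encodes a proteasome inhibitor. Of its 6 genes, 3 were higher at 24 h and 2 at 72 h against 0 h, and 0 lower at either time. The list medians were 0.95 and 0.78 (1.68 and 1.55 on the deposited scale). Psmb7, the constitutive counterpart of Psmb10, was 2.63-fold higher at 24 h than at 0 h, and Psme3, which encodes a nuclear proteasome activator, 4.10-fold. At 72 h against 0 h the 2 genes called higher were Psme3, at 2.19-fold, and the inhibitor gene Psmf1, at 2.09-fold. The catalytic subunit genes Psmb7, Psmb5 and Psmb6 stayed within 2-fold, at log2 differences of 0.87, 0.68 and 0.29.

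Of the partners that fold class I molecules and fit peptides to them, 2 of 10 were lower at 72 h than at 0 h and 0 higher, with a median of -0.47 (0.30 on the deposited scale). Tapbpl, a peptide editor related to tapasin, was 3.09-fold lower, with 30.4 at 72 h, just above the floor, against 94.0 at 0 h. Uggt1, which checks the folding of glycoproteins, was 2.35-fold lower. The chaperones Calr, Canx and Hspa5 and the oxidoreductase Pdia3 stayed within 2-fold, with log2 differences of 0.71, -0.09, -0.27 and 0.17. Erap1, which trims peptides in the endoplasmic reticulum, had a log2 difference of -0.79. Among 7 cytosolic peptidases 2 were lower and 0 higher at 72 h, with a median of 0.33 (1.11 on the deposited scale). Npepps was 3.99-fold and Blmh 3.77-fold lower than at 0 h. At 24 h, Prep had been 3.44-fold and Thop1 2.45-fold higher than at 0 h. Nrd1 stood at 0.87 and Prep at 0.84 for 72 h against 0 h, both within 2-fold.

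Among the regulators of class I transcription 5 of 11 measured genes were lower at 72 h than at 0 h, where 12.8% of all genes were, and 0 higher, with a median of -0.76 (0.01 on the deposited scale). Irf8, an interferon regulatory factor of macrophages, read 68.7 at 72 h against 1184 at 0 h, 17.3-fold lower. Irf1, which binds the response element of class I promoters, read 265 at 72 h against 808 at 0 h, 3.05-fold lower, and had already been 3.32-fold lower at 24 h. Rfx5, a subunit of the factor that binds the X box, was 2.74-fold lower at 72 h. The NF-kappaB subunit Rela and the CCAAT-binding subunit Nfya stayed within 2-fold, with log2 differences of -0.41 and -0.76. Nlrc5, the class I transactivator, had no single-symbol probe set.

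The list of interferon receptors and their kinases also held the transcription factors Stat2 and Irf9. Of its 9 measured genes, 4 (Ifngr1, Irf9, Jak2 and Stat2) were lower at 72 h against 0 h and 1 higher. Among all genes the shares lower and higher were 12.8% and 12.5%. The median of the list was -0.93 (-0.15 on the deposited scale). The 2 chains of the interferon gamma receptor parted: Ifngr1 was 3.66-fold lower and Ifngr2 2.42-fold higher. Irf9 was 3.30-fold lower and the kinase Jak2 2.46-fold lower, while Jak1 and the type I receptor chain Ifnar2 had log2 differences of -0.38 and -0.24. In the first day 1 of these 9 genes, Stat2, was called lower, at 2.44-fold below 0 h.

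Further heavy chain genes and class I-like genes were measured as well. Of 16 such genes 9 were under the floor on all arrays. Of the 7 measured, 3 were lower at 72 h than at 0 h, where 12.8% of all genes were, and 0 higher. Their median was -0.97, and it was -0.24 on the deposited scale and -0.41 with the 60th percentile floor. Hfe, a regulator of iron uptake with a class I fold, read 93.5 at 72 h against 918 at 0 h, 9.83-fold lower. Procr, the protein C receptor, was 2.82-fold lower and Mr1, which presents vitamin B metabolites, 2.09-fold lower. Fcgrt, the neonatal Fc receptor, was 2.25-fold lower at 24 h than at 0 h and had a log2 difference of -0.97 at 72 h. Cd1d1, which presents lipids, stayed within 2-fold at 0.35.

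**Figure D3:**
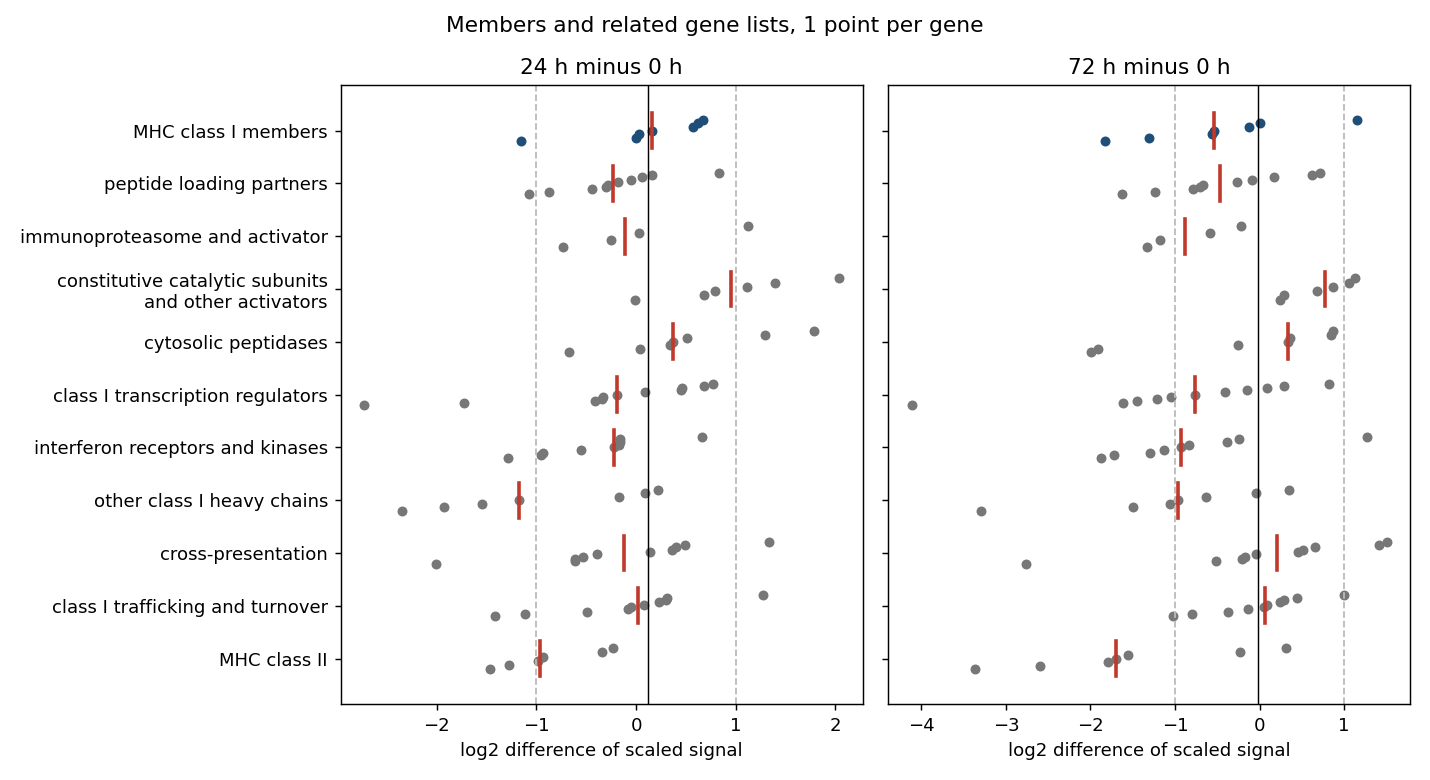
Log2 difference of scaled signal for 24 h minus 0 h and 72 h minus 0 h, 1 point per measured gene, for the class I genes (blue) and 10 related gene lists (grey). Red bars are list medians, the black line is the median of all measured genes, and the dashed lines mark 2-fold. At 72 h the medians are -0.54 for class I, 0.78 for constitutive catalytic subunits and other activators, and -1.69 for MHC class II. The list of constitutive catalytic subunits and other activators includes the inhibitor gene Psmf1.

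Genes used to present material taken up from outside gave mixed counts, with 2 of 10 higher and 1 lower at 72 h against 0 h and a median of 0.21 (0.98 on the deposited scale). Ifi30, a lysosomal thiol reductase, was 2.84-fold and the GTPase Rac2 2.65-fold higher, and Cybb, the phagocyte oxidase subunit, was 6.79-fold lower. Sec61b, a translocon subunit, and the SNARE gene Vamp8 stayed within 2-fold at -0.17 and 0.51, and the SNARE gene Snap23 was higher at 72 h than at 24 h by 1.20 on the log2 scale. In the trafficking and turnover list 1 of 10 was lower, Derl1 at 2.03-fold, and 0 higher, with a median of 0.07. That median was 0.84 on the deposited scale, -0.09 with quantile normalization, -0.06 with a trimmed mean as the scale and -0.01 with probe sets averaged. The cargo receptor Bcap31 and the GTPase Arf6 stayed within 2-fold at 0.30 and 0.05. At 24 h against 0 h, Bcap29 was 2.42-fold higher and Ehd3 2.67-fold lower. MHC class II genes, which present extracellular peptides to CD4 T cells, were lower in 5 of 7 at 72 h, with a median of -1.69 (-0.97 on the deposited scale) and H2-Aa at 45.3 at 72 h against 468 at 0 h. H2-DMa was 6.07-fold and H2-Eb1 3.47-fold lower. The class II and class I medians of -1.69 and -0.54 come from the same 2 arrays, and their difference could not be tested.

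By likeness of pattern, the genes nearest to H2-M3 were Otulinl, F2rl2, Tmem131l, Ggh and Capn1. Their Euclidean distances to it, over the log2 differences 24 h minus 0 h and 72 h minus 24 h, were 0.04 to 0.08 among 7164 genes above the floor on all 3 arrays. The nearest of the other class I genes was H2-K1 at 1.32. With 3 arrays such distances describe these arrays only.

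Markers of other cells moved over the same times. At 72 h against 0 h, 10 of 10 neutrophil and precursor markers were lower at 2-fold, and their summed scaled signal was 18452, 13133 and 1393 at 0, 24 and 72 h. For macrophages 8 of 10 markers were lower and 1 higher, with sums of 32591, 11308 and 16121 in the same order of time. For 72 h against 24 h, 1 of the 10 was called higher, Cd68, with 6699 against 2438. In that interval 1 was called lower, Cx3cr1, with 51.6 against 420. The higher sum at 72 h than at 24 h thus does not describe the markers one by one. For stromal cells and osteoblasts 3 of 6 were higher, with sums of 1981, 2293 and 7608, and the osteoclast sums were 1913, 8633 and 31963. Under the floor on all arrays were 5 of 8 markers of T and NK cells, 4 of 6 of B cells, 3 of 4 of erythroid, 4 of 6 of dendritic and 3 of 5 of endothelial cells. Of the markers of these 5 cell types, Cd4 was called lower and Itgax higher for 72 h against 0 h, Cd4 being under the floor at 72 h. The part of these cell types in the class I signals was not tested.

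The calls for H2-M3 and Tap2 at 72 h held under each of the 5 other settings that could move them, 4 of scaling and 1 with a pseudocount. The other floors and gene summaries gave the same values, since each gene has 1 probe set and it lay above each floor. Across the settings the log2 difference for 72 h against 0 h lay between -1.95 and -1.06 for H2-M3 and between 1.03 and 1.93 for Tap2. Tapbp stayed negative in all 10 other settings tried but was past 2-fold in 8, falling short on the deposited scale (-0.54) and with its probe sets averaged (-0.67). H2-K1 and Tap1 could be computed under 9 of these settings and were positive on the deposited scale only, at 0.21 and 0.23. B2m lay between -0.25 and 0.65 and H2-D1 between -0.24 and 0.78, and the sign of H2-D1 depended on the setting.

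**Figure D4:**
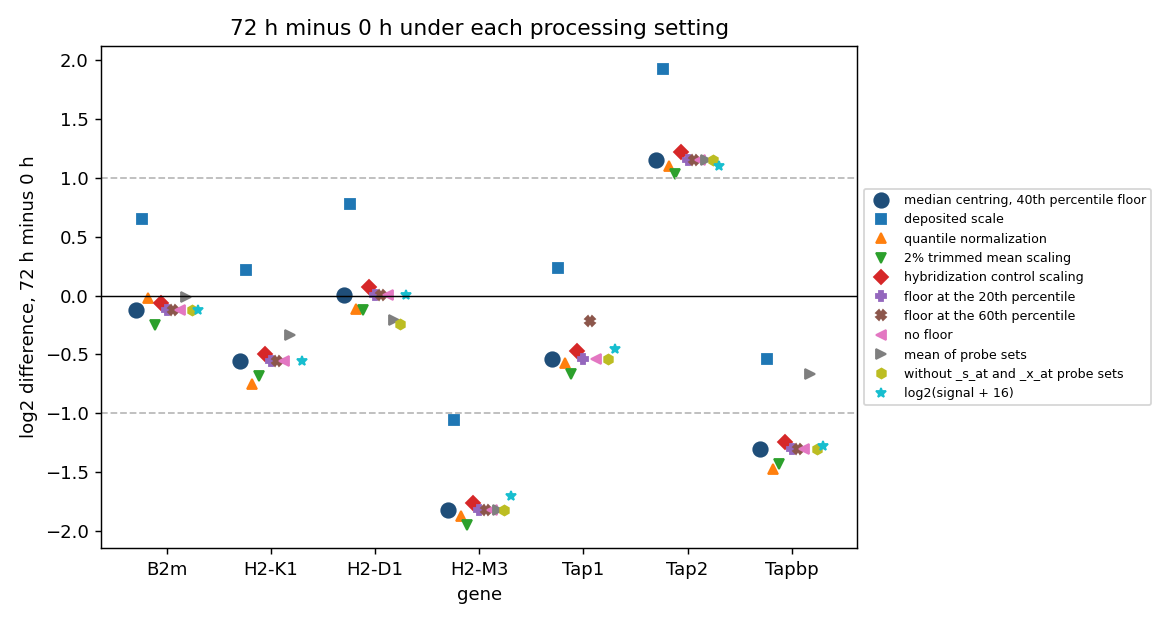
Log2 difference of signal, 72 h minus 0 h, for 7 genes under median centring (dark blue circles) and 10 other settings (other symbols). The dashed lines mark 2-fold. H2-M3 lies at or below -1.06 and Tap2 at or above 1.03 throughout, whereas the deposited scale (squares) puts every gene higher than the other settings do.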

How the data were processed

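RNA was measured on 3 Affymetrix arrays from 5 µg of total RNA each, per the labels. Each array's deposited column holds linear intensity values, which the authors made with MAS5 per the submitters' processing notes, while its version and scaling target are not given in the sources used here. Of 22690 probe sets 64 were controls. Of the rest, the 2016 platform annotation gave 1 symbol for 20380, several for 691 and none for 1555, and those with several or none named no gene. From there, each array's log2 signals were centred on the median of gene probe sets, floored at the 40th percentile and differenced, with Python 3.11.15, pandas 2.3.3 and numpy 2.4.6. The calculation was tested on simulated data, with changes planted in brighter genes and larger than those of the class I genes. That test did not cover changes near 2-fold or near the floor. Having 3 arrays limits the precision.

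The members, lists and settings were chosen with earlier results of these data known. Named genes are all members and, from each list, genes past 2-fold and above the floor on both arrays (at most 3 per direction for 72 h against 0 h, 2 for other intervals) with the 2 brightest within 2-fold. Outside this rule, Canx, Pdia3, Erap1, Cd4, Itgax, Cd68 and Cx3cr1 were chosen after their values were seen. Likeness to H2-M3 was ranked by Euclidean distance. Promoter letters came from RefSeq windows of 250 bases before to 50 after a gene start (GRCm38.p6). The array's genome build is not given in the sources used here.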

Additional observations from a re-analysis of the deposited data

How the results depend on the processing

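No paired analysis was possible because each time has 1 array. The deposited scale differs from the centred one by log2 shifts of 0.73 (24 h) and 0.77 (72 h) over all probe sets, and its class I counts were 3 higher and 0 lower at 24 h (median 0.89, H2-M3 lost at -0.43) and 1 lower at 72 h (median 0.23), both against 0 h. The related lists together (91 genes, 79 of them measured there against 0 h) had 24 higher and 5 lower at 24 h and 25 higher and 9 lower at 72 h, beside 8 and 13, and 5 and 25, of 80 and 81 measured with centring. A floor at the 60th percentile left 1 class I gene lower for 72 h against 24 h (Tap1 lost at -0.89), and in the lists 8 lower at 24 h against 0 h and 6 lower for 72 h against 24 h. With a floor at the 20th percentile or none, 3 class I genes were lower for 72 h against 24 h, H2-Q10 then being measured at -1.10. In these 2 settings 4 list genes were higher in that interval. Averaging probe sets left 0 class I genes lower for 72 h against 24 h and 1 for 72 h against 0 h, and 3 list genes higher in the last. At a 1.5-fold threshold 2 class I genes were higher at 24 h and 5 lower for 72 h against 24 h, and the lists had 14 higher and 22 lower at 24 h, 6 and 25 for 72 h against 24 h, and 14 higher for 72 h against 0 h. Of all calls at 24 h against 0 h 58.8% were higher, and 91.3% on the deposited scale, 46.9% after quantile normalization and 42.2% after trimmed mean scaling; at 72 h against 0 h 49.4% were, and 86.8% on the deposited scale. No class I gene called in the main setting changed its sign. Over all genes, calls higher and lower numbered 1112 and 778 at 24 h and 1068 and 1095 at 72 h against 0 h, and 581 and 839 for 72 h against 24 h. In the same order they were 3302 and 314, 2985 and 455, and 668 and 803 on the deposited scale, 1482 and 1307, 1487 and 1659, and 981 and 1267 with the 20th percentile floor, 826 and 523, 746 and 712, and 364 and 563 with the 60th, 2004 and 1869, 1971 and 2252, and 1469 and 1859 with none, and 2255 and 1499, 1986 and 1997, and 1193 and 2032 at 1.5-fold. H2-K1 had no value without probe sets ending in _s_at or _x_at, nor had Tap1 with probe sets averaged. The cause of these changes was not tested.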
